A study of Homo sapiens with 6 samples.

Results

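Ligands and receptors of the TNF superfamily were measured in PC-3/Mc cells and set against PC-3/S cells. Both are sublines of PC-3, a human prostate carcinoma cell line established from a bone metastasis. Members were chosen by symbol: every probe set whose platform annotation gives a single symbol that begins with TNFSF or TNFRSF and a number, or one of TNF, LTA, LTB, FAS, FASLG, CD27, CD40, CD40LG and CD70. This gave 83 of 54675 probe sets and 41 of 19775 genes, namely 15 ligands, 23 receptors and 3 non-coding transcripts named after a receptor gene; CD40LG, for which no single-symbol probe set was found, was not analysed here. By its title, the study asks how epithelial-mesenchymal transition relates to tumor-initiating cells. RNA from 3 samples of PC-3/Mc and 3 of PC-3/S, all harvested before confluence with no treatment named, was hybridised to 6 Affymetrix arrays with 1 colour each. The labels call the samples biological replicates without saying whether they came from separate cultures, so the p-values cover only sample-to-sample spread that could be technical. Each group is 1 subline.

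Ligands of the TNF superfamily are mostly trimeric proteins made as membrane proteins, some of which are cut and released. Their receptors fall into those with an intracellular death domain, which can recruit FADD or TRADD and switch on caspases, those that bind TRAF adaptors and switch on NF-kappaB and kinase signalling, and decoys that bind ligand without passing on a signal. Most ligands are best known from lymphocytes and myeloid cells, while death receptors such as those of TRAIL are found on many epithelial tumors, prostate cancer among them.

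Values are log2 expression as deposited. Each difference is the PC-3/Mc mean minus the PC-3/S mean, with the standard error of the fit. Means are given ± SD, n = 3 arrays per line throughout, and adjusted p-values come from limma, Benjamini-Hochberg adjusted over the 19775 genes. "Called" means an adjusted p under 0.05. For a gene with several probe sets, that of the highest mean level was used. Detection calls were not used here. A rough floor was set at 5.18, the top reading of CTNNA1, which PC-3 is known to have lost by deletion. Folds are lower bounds where the mean of the dimmer line did not exceed this floor. Array medians lay between 4.98 and 5.09, and correlations over probe sets were 0.995 to 0.997 within a line and 0.949 to 0.952 between lines.

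Both lines read above the floor for the epithelial adhesion molecule EPCAM, which averaged 11.88 ± 0.19 in PC-3/Mc against 6.44 ± 0.22 in PC-3/S (5.43 ± 0.13, adjusted p = 1.5e-10), and for the simple-epithelium keratins KRT8 (9.81 in PC-3/Mc against 8.78 in PC-3/S), KRT18 (12.48 against 11.32) and KRT19 (11.28 against 11.76). PTPRC, the common leukocyte antigen, read 3.90 in PC-3/Mc against 3.72 in PC-3/S, under the floor. Of 6 T cell markers 5 lay at or under the floor in both lines, as did 3 of 5 measured B cell, 4 of 5 measured myeloid and 2 of 4 general leukocyte markers. The summed level of the general leukocyte markers was 6.55 to 6.72 on the PC-3/Mc arrays and 6.89 to 6.98 on the PC-3/S arrays, on the log2 scale, and among them CORO1A differed by -0.92. The summed B cell markers ran from 7.64 to 7.68 in PC-3/Mc and 7.27 to 7.44 in PC-3/S. Of these markers CR2 differed by 2.26 and CD79A by -0.38. For T cell markers the sums were 7.10 to 7.27 in PC-3/Mc and 7.15 to 7.31 in PC-3/S, and for myeloid markers 6.84 to 7.07 in PC-3/Mc and 6.86 to 7.03 in PC-3/S. Fibroblast markers summed to 8.06 to 8.28 in PC-3/Mc and 8.55 to 8.62 in PC-3/S, and endothelial markers to 7.82 to 7.90 in PC-3/Mc and 7.85 to 8.03 in PC-3/S. Among these COL3A1 and KDR were lower in PC-3/Mc, by at least 2.05-fold and 2.07-fold, with PC-3/Mc under the floor. DCN (-0.44) and COL1A1 (-0.28) were called lower as well. Called higher in PC-3/Mc were PECAM1 (0.60), above the floor in both lines, and PDGFRB (0.35), under it in both. The part of other cells in the values below was not tested. In bulk RNA, fewer cells with a transcript and less of it per cell cannot be told apart.

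In PC-3/Mc 13 of the 41 members were lower and 4 were higher, and 24 were not called, where 23.2% of all genes were called higher and 22.7% lower. The median difference was -0.19, against -0.03 over all genes. At least 2-fold differences were found for 8 members: CD70, TNFSF9 and TNFRSF1A were higher in PC-3/Mc, and TNFRSF9, TNFRSF14, TNFRSF21, TNFRSF10B and CD40 were lower. Of all genes 11.5% were called at this size and 45.9% at any size, so that the 17 called members are near the background share, and nothing particular to the family is read from their number. Among the 23 receptors 10 were lower and 2 higher, and among the 15 ligands 3 were lower and 2 higher. For 25 members the arrays of both lines were fully separated, against 53.1% of all genes. With arrays quantile-normalized, 7 members were called higher and 13 lower; the 3 added were FASLG (adjusted p = 0.043), TNFRSF10A-DT (adjusted p = 0.05) and TNFRSF10C (adjusted p = 0.013).

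**Figure D1:**
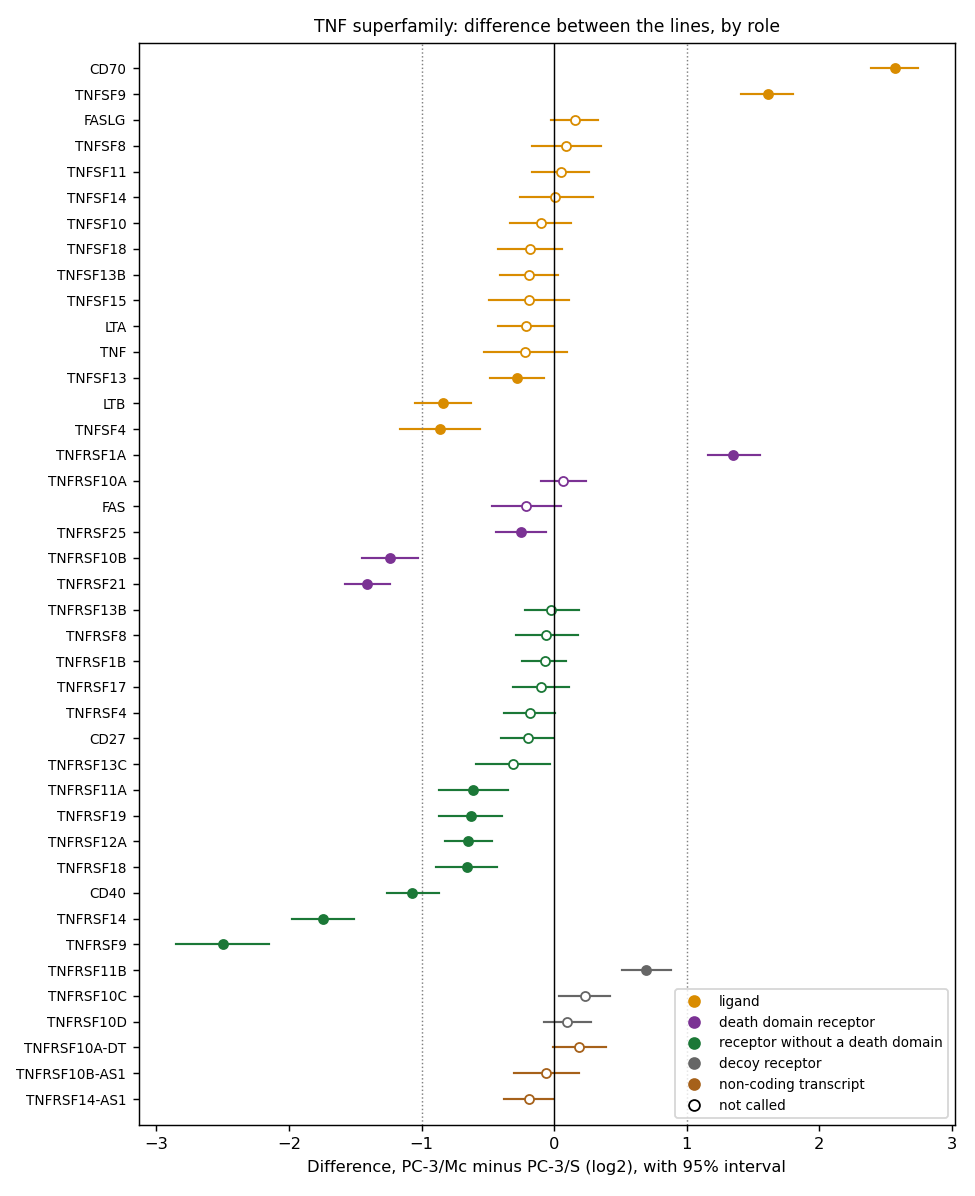
Log2 difference (PC-3/Mc minus PC-3/S) for the 41 members, grouped by role, with 95% intervals from the limma fit (3 arrays per line); filled points were called and dotted lines mark a 2-fold difference. CD70 lies farthest to the right at 2.57 and TNFRSF9 farthest to the left at -2.50. No called receptor without a death domain lies right of 0, where 23.2% of all genes were called higher.

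The start regions of 5 of the 8 members that differed at least 2-fold are shown so that the sequences can be set beside the values that follow. RefSeq entries (GRCh38.p14, 250 bases before to 50 after the gene's start, 5′ to 3′ on the gene's strand) were found for 27 of the 41 members; CD70, CD40 and TNFRSF10B have none in the table. Capitals mark matches, on either strand, to 1 of 4 motifs chosen with the values known: an NF-kappaB motif (GGG, any 2 bases, TT, any base, CC), an AP-1 motif (TGANTCA), an interferon-stimulated response element, or ISRE (GAAA, any 2 bases, GAAA), and an E-box (CACGTG). Matches of different motifs were counted separately where they overlap.
TNFSF9: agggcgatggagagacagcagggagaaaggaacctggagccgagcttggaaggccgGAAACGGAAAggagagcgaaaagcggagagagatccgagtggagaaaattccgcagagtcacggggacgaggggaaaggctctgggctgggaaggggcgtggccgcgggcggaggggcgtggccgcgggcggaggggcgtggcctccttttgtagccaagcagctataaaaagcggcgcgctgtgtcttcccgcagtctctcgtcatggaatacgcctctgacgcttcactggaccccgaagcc
TNFRSF1A: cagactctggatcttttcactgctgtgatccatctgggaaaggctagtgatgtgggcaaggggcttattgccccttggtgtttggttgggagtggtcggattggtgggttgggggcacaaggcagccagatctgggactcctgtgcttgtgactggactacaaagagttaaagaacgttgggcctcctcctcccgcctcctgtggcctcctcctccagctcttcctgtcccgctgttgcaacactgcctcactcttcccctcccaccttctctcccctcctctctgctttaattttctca
TNFRSF9: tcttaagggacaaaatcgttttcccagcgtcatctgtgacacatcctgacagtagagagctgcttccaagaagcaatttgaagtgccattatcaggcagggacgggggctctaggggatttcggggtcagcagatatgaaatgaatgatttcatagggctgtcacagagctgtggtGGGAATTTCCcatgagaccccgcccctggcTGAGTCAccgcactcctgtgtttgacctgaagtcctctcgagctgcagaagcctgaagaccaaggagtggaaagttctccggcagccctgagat
TNFRSF14: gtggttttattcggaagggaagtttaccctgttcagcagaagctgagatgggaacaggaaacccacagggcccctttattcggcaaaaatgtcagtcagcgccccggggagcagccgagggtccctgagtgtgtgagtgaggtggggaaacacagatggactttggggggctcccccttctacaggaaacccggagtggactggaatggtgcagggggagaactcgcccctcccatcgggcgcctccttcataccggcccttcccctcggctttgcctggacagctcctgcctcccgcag
TNFRSF21: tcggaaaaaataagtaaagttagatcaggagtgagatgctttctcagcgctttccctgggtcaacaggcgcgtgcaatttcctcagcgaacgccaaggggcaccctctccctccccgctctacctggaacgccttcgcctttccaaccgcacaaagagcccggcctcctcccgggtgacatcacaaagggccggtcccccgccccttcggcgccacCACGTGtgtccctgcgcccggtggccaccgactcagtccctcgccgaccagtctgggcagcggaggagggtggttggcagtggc

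The TNFRSF9 region, chr1:7940790-7941089 on the minus strand, held an NF-kappaB match and an AP-1 match, which begin at positions -74 and -44 counted from the start. The TNFRSF21 region, chr6:47309856-47310155 on the minus strand, held an E-box at -34, and the TNFSF9 region, chr19:6530776-6531075 on the plus strand, an ISRE match at -194. The regions of TNFRSF14 (chr1:2556121-2556420, plus strand) and TNFRSF1A (chr12:6342027-6342326, minus strand) held none of the 4 letter strings. A gene may have several regions in the table. Of the 35116 regions, all of this length, 5.68% held the NF-kappaB string, 7.71% the AP-1 string, 3.57% the ISRE string and 7.26% the E-box. Counted per gene, with a match in any of its regions, the shares of 27305 genes were 6.85%, 9.37%, 4.38% and 8.77% in the same order. By that same count per gene, of the 27 members with an entry 8 held the NF-kappaB string, 6 the AP-1 string, 6 the ISRE string and 2 the E-box. The 8 with the NF-kappaB string belong to TNFRSF9, LTB, TNFSF13 and TNFRSF25, called lower in PC-3/Mc, and to CD27, FAS, LTA and TNFRSF13B, not called. A match is a description of letters and does not show a bound site. The array values carry no information on where transcription began.

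Among the ligands, CD70 and TNFSF9 were called higher in PC-3/Mc. CD70, the ligand of CD27, read 8.67, 8.63 and 8.75 on the PC-3/Mc arrays, against 6.18, 6.09 and 6.08 on the PC-3/S arrays. All arrays of both lines lay above the floor, and the difference was 2.57 ± 0.08 (5.92-fold, adjusted p = 1.1e-09). TNFSF9, which encodes 4-1BB ligand, read 6.42, 6.27 and 6.43 in PC-3/Mc, against 4.80, 4.86 and 4.65 in PC-3/S. The PC-3/S arrays were all under the floor and the groups were far apart, so that PC-3/Mc exceeded PC-3/S at least 2.29-fold (1.61 ± 0.09, adjusted p = 9.9e-08). Both genes have a single probe set. With the floor set at 5.96 instead, the 95th percentile of leukocyte marker readings, the bound for TNFSF9 dropped to 1.33-fold.

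Lower in PC-3/Mc were LTB, TNFSF4 and TNFSF13. LTB, the lymphotoxin subunit that anchors the heterotrimer to the membrane, averaged 5.08 ± 0.01 in PC-3/Mc against 5.92 ± 0.17 in PC-3/S, at least 1.67-fold lower (adjusted p = 2.6e-05); its other probe set differed by -0.29 and was not called over all probe sets (adjusted p = 0.052). TNFSF4, which encodes OX40 ligand, averaged 5.04 ± 0.27 in PC-3/Mc against 5.90 ± 0.16 in PC-3/S, at least 1.58-fold lower (adjusted p = 3.2e-04). With the floor at 5.96 the means of LTB and TNFSF4 lay under it in both lines, and no bound can be given. TNFSF13 (APRIL), a survival factor of plasma cells, differed by -0.28 ± 0.09 (adjusted p = 0.023). This last call was lost in 3 of the 6 fits that left out an array (adjusted p = 0.077 to 0.09).

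The other 10 ligands were not called, and all 10 lay at or under the floor in both lines. TNF, the cytokine after which the family is named, read 4.59, 4.38 and 4.54 in PC-3/Mc, against 4.85, 4.96 and 4.36 in PC-3/S. Its groups overlapped (-0.22 ± 0.14, adjusted p = 0.25), although without PC-3/S replicate 3 the call was made (-0.40, adjusted p = 0.0085). TNFSF10, which encodes the death ligand TRAIL, read 4.46, 4.46 and 4.29 in PC-3/Mc, against 4.46, 4.70 and 4.35 in PC-3/S, and these overlapped as well (adjusted p = 0.46). None of the 3 TNFSF10 probe sets was called or read above the floor. The remaining differences ran from -0.21 to 0.16 for LTA, FASLG (Fas ligand), TNFSF8, TNFSF11 (RANK ligand), TNFSF13B (BAFF), TNFSF14 (LIGHT), TNFSF15 and TNFSF18. LTA was called without PC-3/Mc replicate 3 (-0.27, adjusted p = 0.045). At readings of this size a transcript that is present at a low level cannot be told from one that is absent.

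**Figure D2:**
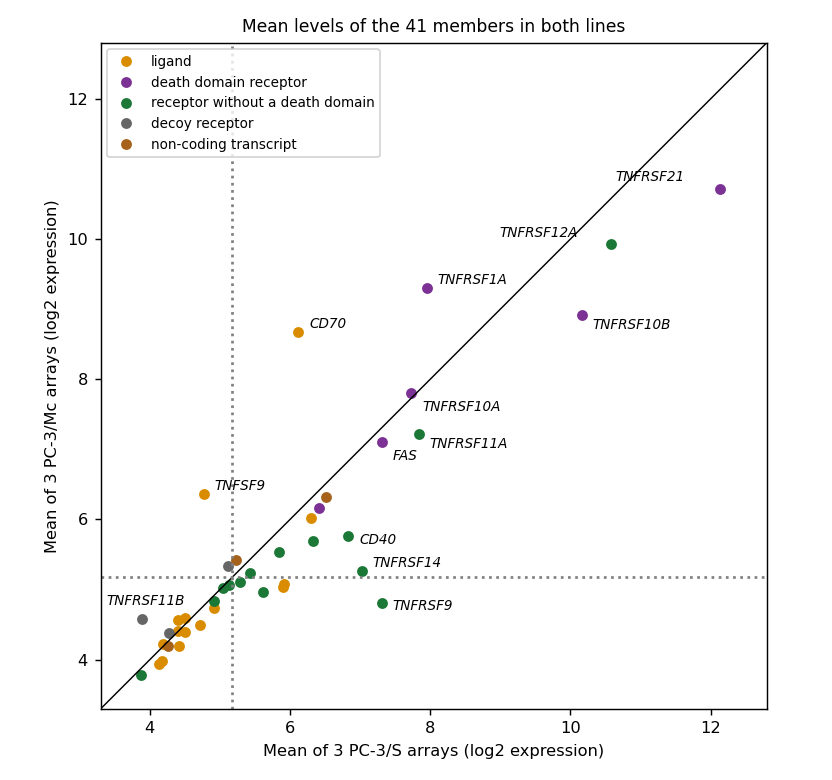
Mean log2 expression of the 41 members, PC-3/Mc on the vertical and PC-3/S on the horizontal axis, coloured by role, with the line of equality and dotted lines at the floor of 5.18. Most ligands crowd in the lower left corner under the floor in both lines, while all 6 death domain receptors lie above it; readings of different probe sets are not a scale of abundance.

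The 6 death domain receptors all read above the floor in both lines, and they did not move together. TNFRSF1A, the main receptor of TNF, read 9.45, 9.23 and 9.24 in PC-3/Mc, against 7.99, 7.88 and 7.98 in PC-3/S. The lowest PC-3/Mc array was thus more than 1 log2 unit above the highest PC-3/S array, and the difference was 1.35 ± 0.09 (2.56-fold, adjusted p = 3.2e-07). Its single probe set is of the _x_at or _s_at kind, whose probes may match related transcripts. Among the 23 member receptors, TNFRSF1A was the only one above the floor called higher in PC-3/Mc in the fit to the deposited values with 1 probe set per gene. In the fit over all probe sets, 2 of the 3 of TNFRSF10A and 1 of the 5 of FAS were called higher as well.

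Of the receptors of TRAIL that carry a death domain, 1 was lower and the other was not called. TNFRSF10B (TRAIL receptor 2) read 9.02, 8.96 and 8.79 in PC-3/Mc, against 10.12, 10.06 and 10.29 in PC-3/S. All PC-3/Mc arrays were below all PC-3/S arrays, by a difference of -1.24 ± 0.09 (2.36-fold, adjusted p = 1.2e-06). TNFRSF10A (TRAIL receptor 1) read 7.90, 7.73 and 7.78 in PC-3/Mc, against 7.73, 7.71 and 7.75 in PC-3/S, with overlapping groups (0.07 ± 0.08, 95% interval -0.10 to 0.24, adjusted p = 0.52). The other 2 probe sets of TNFRSF10A were called higher, by 0.41 and 0.46, and with the median over its probe sets the gene was called (0.26, adjusted p = 0.018). For TNFRSF10B, 3 of 4 probe sets were called lower, by -0.69 to -1.24, and the fourth was under the floor. The median over the 4 gave -0.71 (adjusted p = 6.6e-06).

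TNFRSF21 (death receptor 6), a receptor studied in neurons and T cells, read 10.78, 10.68 and 10.71 in PC-3/Mc, against 12.07, 12.13 and 12.19 in PC-3/S. The groups were clearly separate at -1.41 ± 0.08 (2.65-fold, adjusted p = 9.5e-08), and both of its probe sets were called lower. FAS, the receptor of Fas ligand, read 7.01, 7.29 and 7.01 in PC-3/Mc, against 7.18, 7.22 and 7.54 in PC-3/S. The FAS groups overlapped (-0.21 ± 0.12, adjusted p = 0.18), and of its 5 probe sets only 1 was called, in the other direction (0.32, adjusted p = 0.011 over all probe sets). TNFRSF25 (death receptor 3) was called lower by -0.25 ± 0.09 (adjusted p = 0.036), and that call was lost in 4 of the 6 fits that left out an array (adjusted p = 0.075 to 0.12). With the median over its probe sets the call was lost too (adjusted p = 0.21). Over all probe sets only 1 of its 5 was called, lower by -0.33 (adjusted p = 0.025). The probe set used for the gene was not called there (adjusted p = 0.053).

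**Figure D3:**
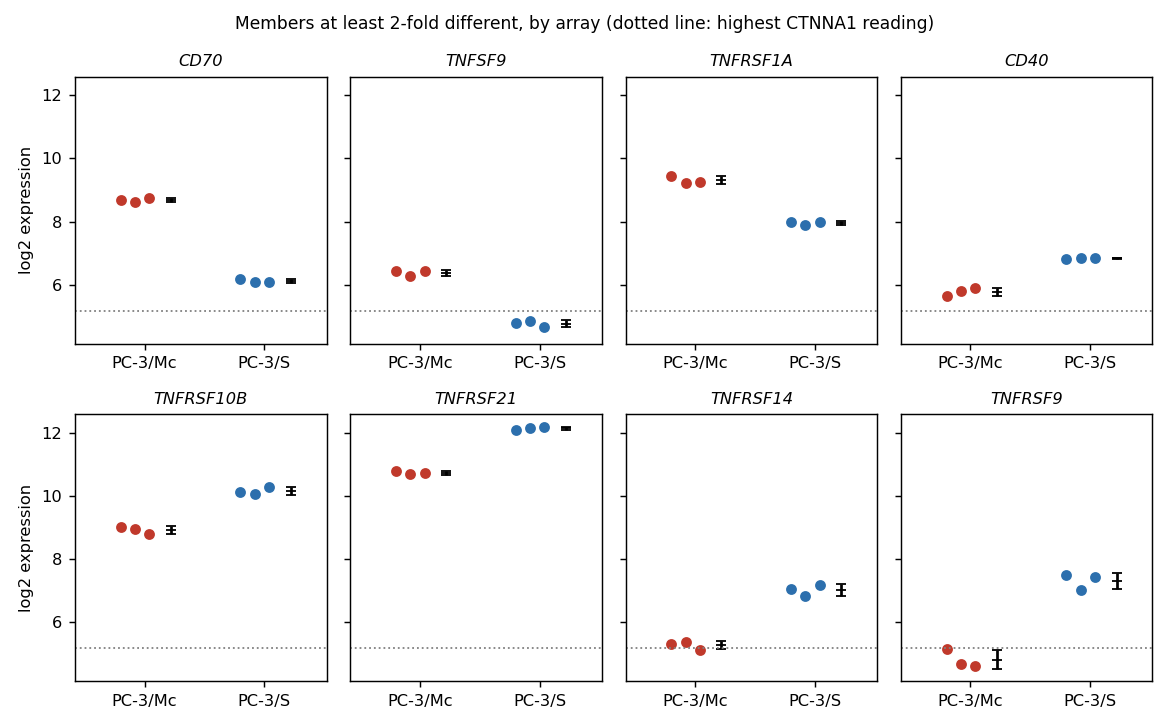
Log2 expression on each of the 3 PC-3/Mc (red) and 3 PC-3/S (blue) arrays for the 8 members that differed at least 2-fold; black bars give mean ± SD and the dotted line the floor of 5.18. The 2 lines do not overlap for any of the 8, and PC-3/S for TNFSF9 and PC-3/Mc for TNFRSF9 lie at or under the floor.

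Of the 14 receptors lacking a death domain 0 were higher in PC-3/Mc, 7 were lower and 7 had no call (limma, 0 higher also with arrays quantile-normalized). Of all genes 45.9% were called, 23.2% higher and 22.7% lower, and nothing is read from the counts of these 14. These receptors signal through TRAF adaptors. TNFRSF9 (4-1BB), a co-stimulatory receptor of activated T cells, read 5.15, 4.68 and 4.61 in PC-3/Mc, against 7.49, 7.02 and 7.42 in PC-3/S. All PC-3/Mc arrays were under the floor and all PC-3/S arrays well above it, so TNFRSF9 was at least 4.39-fold lower (-2.50 ± 0.16, adjusted p = 2.9e-07), or at least 2.55-fold with the floor at 5.96. The probe set used is of the _x_at or _s_at kind. The other TNFRSF9 probe sets were called in the same direction but differed by -0.75 and -0.42, near or under the floor in both lines. The median over the 3 gave -0.59 (adjusted p = 4.4e-05).

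TNFRSF14 (HVEM), the receptor of LIGHT and a binding partner of BTLA, read 5.32, 5.36 and 5.13 in PC-3/Mc, against 7.06, 6.81 and 7.18 in PC-3/S. The PC-3/Mc arrays lay around the floor, and the difference was -1.74 ± 0.11 (3.35-fold, adjusted p = 2.4e-07) on its single probe set. With the floor at 5.96 this became a bound of at least 2.08-fold. CD40, the receptor through which T cells activate B cells and dendritic cells, read 5.63, 5.79 and 5.88 in PC-3/Mc, against 6.80, 6.86 and 6.83 in PC-3/S. The groups were separate by -1.07 ± 0.09 (2.09-fold, adjusted p = 1.9e-06). With the floor at 5.96 the PC-3/Mc arrays all lay under it, and the fold of this probe set became a bound of less than 2-fold. Of the 4 CD40 probe sets, 2 others differed by more, -1.57 and -2.05, with PC-3/Mc under the floor, and the last was under it in both lines. The median over the 4 gave -1.81 (adjusted p = 2.4e-08).

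On the probe sets used for the genes, differences of under 2-fold were called for TNFRSF12A, TNFRSF18, TNFRSF19 and TNFRSF11A. TNFRSF12A (Fn14), the receptor of TWEAK, read 9.95, 9.85 and 10.00 in PC-3/Mc, against 10.57, 10.53 and 10.64 in PC-3/S. Its groups did not overlap, and the difference was -0.65 ± 0.08 (adjusted p = 4.7e-05). TNFRSF11A (RANK), the receptor through which RANK ligand drives osteoclast formation, averaged 7.22 ± 0.21 in PC-3/Mc against 7.84 ± 0.14 in PC-3/S (adjusted p = 0.0012). Its other probe set differed by -0.14 and was not called (adjusted p = 0.26 over all probe sets), and the median over both gave -0.38 (adjusted p = 0.0052). TNFRSF18 (GITR), a receptor of regulatory T cells, averaged 4.96 ± 0.17 in PC-3/Mc against 5.62 ± 0.13 in PC-3/S, at least 1.36-fold lower (adjusted p = 3.3e-04). Its other probe set differed by -1.11, at least 1.57-fold lower (adjusted p = 2.1e-06 over all probe sets). With the floor at 5.96 the means of both TNFRSF18 probe sets lay under it in both lines, and no bound can be given. TNFRSF19 (TROY) differed by -0.63 ± 0.11 (adjusted p = 6.0e-04), without a call when the median over its 3 probe sets was used (adjusted p = 0.17).

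The 7 without a call had means of at most 5.85 in either line, near or under the floor. TNFRSF1B (TNF receptor 2) read 4.81, 4.84 and 4.87 in PC-3/Mc, against 4.87, 4.95 and 4.92 in PC-3/S, all under the floor (-0.07 ± 0.07, adjusted p = 0.47). The B cell receptors TNFRSF13B (TACI), TNFRSF13C (BAFF receptor) and TNFRSF17 (BCMA) differed by -0.02, -0.31 and -0.10. TNFRSF4 (OX40), TNFRSF8 (CD30) and CD27 differed by -0.18, -0.06 and -0.20. Leaving out PC-3/Mc replicate 3 made a call for TNFRSF13C (adjusted p = 0.022), CD27 (adjusted p = 0.033) and TNFRSF4 (adjusted p = 0.048), and leaving out PC-3/S replicate 3 did so for TNFRSF13C (adjusted p = 0.03).

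Of the 3 decoy receptors, only TNFRSF11B was called. TNFRSF11B (osteoprotegerin), the soluble decoy of RANK ligand, read 4.67, 4.52 and 4.56 in PC-3/Mc, against 3.78, 3.94 and 3.95 in PC-3/S. It was higher on every PC-3/Mc array (0.69 ± 0.08, adjusted p = 4.0e-05), as was its other probe set (1.00), but all readings were under the floor, and no fold is given. TNFRSF10C (0.23 ± 0.09, adjusted p = 0.051) and TNFRSF10D (0.10 ± 0.08, adjusted p = 0.34), decoys of TRAIL, were not called. The non-coding transcripts TNFRSF14-AS1 (-0.19), TNFRSF10B-AS1 (-0.06) and TNFRSF10A-DT (0.19) were not called either. Without PC-3/Mc replicate 3, TNFRSF14-AS1 (-0.25, adjusted p = 0.033) and TNFRSF10A-DT (0.26, adjusted p = 0.041) were called, and TNFRSF14-AS1 also with low features left out (adjusted p = 0.047). Whether antisense probe sets also read the receptor transcripts was not tested.

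The 83 probe sets were also tested one by one over all 54613 probe sets that are not controls. Of these 8 were called higher in PC-3/Mc and 22 lower, where 18.4% and 17.5% of all probe sets were called. Of the 24 members with more than 1 probe set, 12 had at least 1 call, 4 were called the same way by every probe set, and 0 had calls in both directions. Over the 10523 genes with more than 1 probe set these shares were 65.5%, 19.6% and 3.56%, and nothing is read from the members' counts. The 4 were TNFRSF9, TNFRSF18 and TNFRSF21, lower, and TNFRSF11B, higher. Some of the 83 share sequence with related transcripts, since a suffix of _x_at or _s_at marks probes that may match more than 1 transcript.

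**Figure D4:**
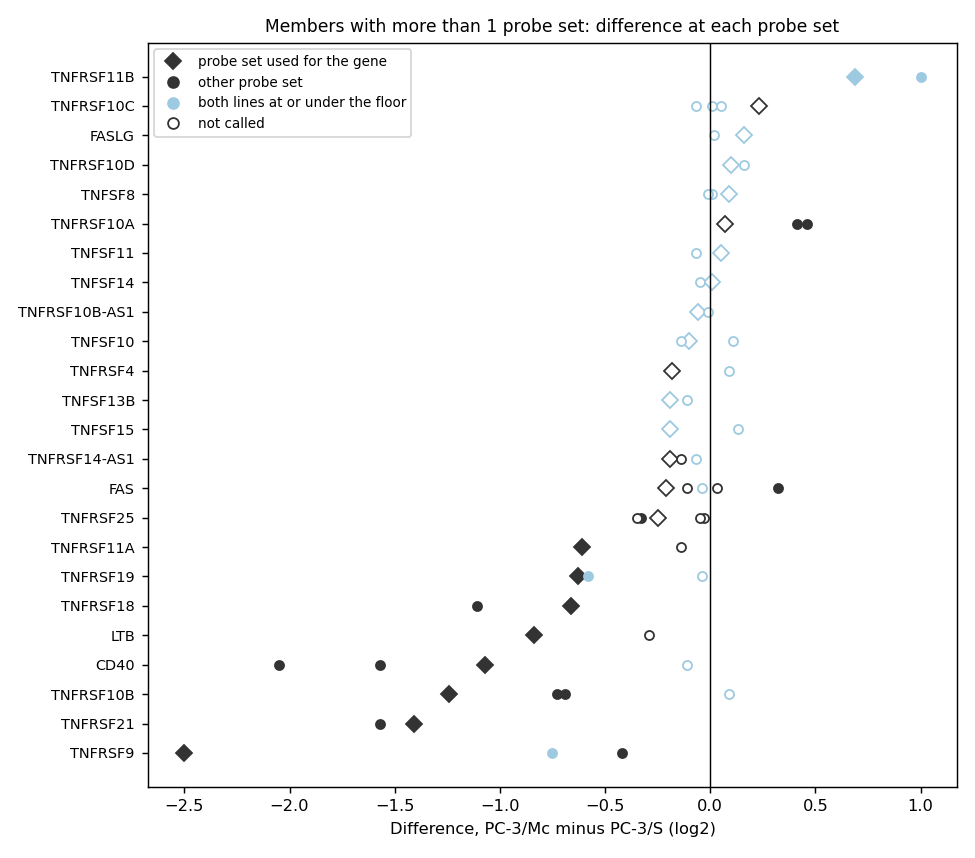
Log2 difference (PC-3/Mc minus PC-3/S) at each probe set of the 24 members with more than 1; diamonds mark the probe set used for the gene, filled symbols those called over all probe sets, and pale blue those with both lines at or under the floor. Probe sets of TNFRSF9 spread from -2.50 to -0.42 and those of CD40 from -2.05 to -0.11, while the 2 of TNFRSF21 lie close together.

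Setting ligands beside their known receptors, 4-1BB ligand and its receptor differed in opposite directions (TNFSF9 1.61, TNFRSF9 -2.50). For the pair of CD70 and CD27, the ligand was higher by 2.57 and the receptor read 5.23 in PC-3/Mc against 5.43 in PC-3/S, near the floor. For TNF, the ligand was under the floor in both lines, and its receptor TNFRSF1A was higher in PC-3/Mc. TRAIL was under the floor as well, and of its 4 membrane receptors only TNFRSF10B was called on the probe sets used for the genes. Over all probe sets, 2 of the 3 of TNFRSF10A were called higher. LIGHT was under the floor while its receptor TNFRSF14 was lower. The other receptor of LIGHT and of lymphotoxin, LTBR, lies outside the symbols of the rule and was called higher by 0.25 (adjusted p = 0.035).

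By the order of coding genes in RefSeq, TNFSF9, CD70 and TNFSF14 follow each other on chromosome 19 with 0 coding genes between them. The first pair was higher in PC-3/Mc by 1.61 and 2.57, while TNFSF14 differed by 0.01 at readings under the floor. LTA, TNF and LTB are likewise consecutive on chromosome 6, at -0.21, -0.22 and -0.84, of which LTB alone was called. The 4 TRAIL receptor genes are consecutive on chromosome 8, and of these TNFRSF10B differed by -1.24 while the other differences ran from 0.07 to 0.23. On chromosome 12, TNFRSF1A (1.35) is separated from CD27 (-0.20) by SCNN1A and LTBR.

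The rest of the pathway was followed with lists of genes chosen by role. For every list count that follows, 23.2% of all genes were called higher in PC-3/Mc and 22.7% lower. The lists were not matched to all genes by level. In the first list 10 of 11 genes reached the all-gene median in their higher line, against 10476 of 19775 genes. Among death receptor adaptors and kinases 5 of 11 were higher in PC-3/Mc and 3 lower (median 0.15). NSMAF, an adaptor of TNF receptor 1 (1.81 ± 0.08), MLKL, the executor of necroptosis (1.61 ± 0.09), and FAF1, a Fas-associated protein (1.36 ± 0.09), were higher, and the kinase RIPK2 was lower (-1.10 ± 0.08). FADD, the adaptor of the caspase route, was chosen after its value was seen, at 0.52. Among caspases and their regulators 7 of 12 were higher and 1 lower (median 0.31), led by BID (1.25 ± 0.08), which links death receptors to mitochondria, and the pore-forming BAX (1.24 ± 0.12). The lower one, DIABLO (-0.70), was also chosen after its value was seen.

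TRAF adaptors and ubiquitin-editing proteins were called in both directions, 9 of 23 each (median -0.04), and the 3 of at least 2-fold difference were all lower. These were BIRC2, a ubiquitin ligase recruited to TNF receptors (-2.01 ± 0.08), and the deubiquitinases TNFAIP3 (-2.01 ± 0.08) and CYLD (-1.22 ± 0.10). Among kinases and NF-kappaB subunits 6 of 21 were higher and 9 lower (median -0.16). MAP3K14, the kinase of the non-canonical NF-kappaB route, differed by -2.01 ± 0.10, RELB, the subunit it serves, by -2.01 ± 0.10, and the inhibitors NFKBIA and NFKBIE by -1.91 ± 0.08 and -1.38 ± 0.08. On probe sets other than the _x_at and _s_at kinds, NFKBIA differed by 0.12 with no call (adjusted p = 0.38). With the median over probe sets NFKBIA gave -0.90 and CYLD -0.68, both still called.

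Of 10 genes for shedding of ligands and receptors 2 were higher and 4 lower (median -0.13), with RHBDF1, a cofactor of the protease ADAM17, lower by -1.64 ± 0.09 (-0.96 with the median over its probe sets). Family members outside the symbols of the rule gave 1 higher and 2 lower of 8 (median -0.08), none by 2-fold. Of 26 genes known to be inducible by TNF, limma called 20 lower in PC-3/Mc, beside 22.7% of all genes. It called 0 higher, beside 23.2% of all genes, and left 6 without a call. The median of the 26 was -1.60, against -0.03 over all genes. Among them CXCL8, the neutrophil chemokine interleukin-8, was lower by 48.1-fold (-5.59 ± 0.08) and the pentraxin PTX3 by 41.2-fold (-5.37 ± 0.15). BCL2A1, an inhibitor of apoptosis, and the cytokine IL6 read under the floor in PC-3/Mc, at 3.43 and 4.76, and were at least 26.0-fold and 7.38-fold lower. Many of these genes also answer to other stimuli, and the list was drawn up with differences of several of its members known.

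**Figure D5:**
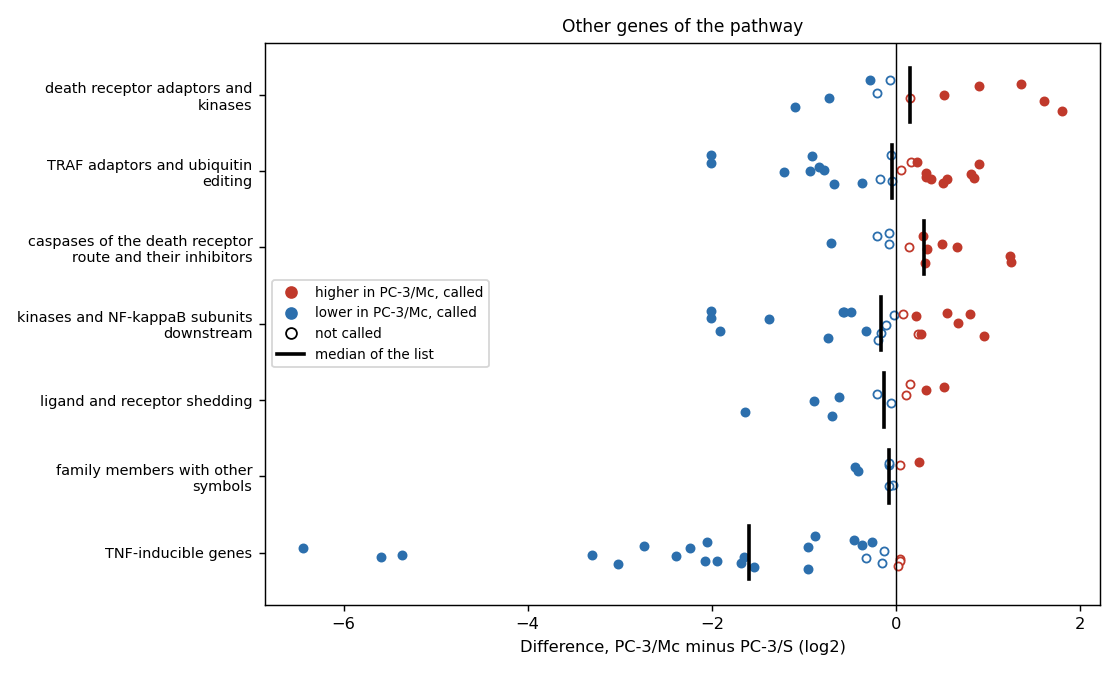
Log2 difference (PC-3/Mc minus PC-3/S) for genes of 7 lists around the TNF superfamily; each point is a gene, filled where called, and black bars give the median of a list. Genes inducible by TNF have a median of -1.60, with 0 of 26 called higher (23.2% over all genes). Caspases and their regulators have a median of 0.31.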

How the data were processed

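RNA of 3 PC-3/Mc and 3 PC-3/S samples was measured on one-colour Affymetrix arrays, grouped by title. The authors deposited a table of log2 expression values for 54675 probe sets; their software, background correction and scaling: not given in the sources used here. Their log base was judged from the range, 2.59 to 14.45. Values entered the tests as deposited. Gene names came from the platform annotation (41091 with 1 symbol, 1801 with several, 11721 with none, 62 controls left out). Under R 4.3.3, limma 3.58.1 (lmFit, then eBayes, two-sided, with no covariate) was run over all 19775 genes, and separately over 54613 probe sets, with Benjamini-Hochberg adjustment. The fit was tested on simulated data. The median standard error was 0.0920; the number of arrays limits the precision.

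Members, lists, motifs and rules were chosen with earlier results of these data known. Values on each array are given for called members of at least 2-fold difference above the floor and for a set of anchors (TNF, TNFRSF1A, TNFRSF1B, TNFSF10, TNFRSF10A, TNFRSF10B, FAS, CD40, TNFRSF21, TNFRSF12A, TNFRSF11B); each pathway list names up to 4 called genes per direction of at least 2-fold difference with a mean in its higher line of at least the all-gene median (5.98). Genes in a list without a single-symbol probe set, such as RIPK1, TRAF2 and BIRC3, were not analysed here. Alternatives left out each array, used the replicate number as a block, quantile-normalized or centred arrays, dropped features below the 40th percentile, changed the variance model, and chose other probe sets or another floor.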

Additional observations from a re-analysis of the deposited data

How the results depend on the processing

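The count of members at least 2-fold different was 8 in each fit that left out an array. It was 6 with the median over probe sets (TNFRSF10B -0.71, TNFRSF9 -0.59) and 7 without _x_at and _s_at probe sets. The 7 are not all among the 8. Without those probe sets TNFRSF1A was not measured and TNFRSF9 differed by -0.42, while TNFRSF11B, under the floor in both lines, differed by 1.00. Leaving out single arrays gave 4 to 5 members called higher and 11 to 17 called lower (17 without PC-3/Mc replicate 3), and 7 to 8 probe sets called higher and 19 to 24 lower. Quantile normalization gave 7 members higher in place of 4. On probe sets other than the _x_at and _s_at kinds, 8 members were lower in place of 13; TNFSF4, TNFSF13, TNFRSF1A, TNFRSF12A and TNFRSF18 then have no probe set, and TNFRSF25 lost its call (-0.03, adjusted p = 0.85). In the same setting the signs of NFKBIA (0.12), TNFRSF4 (0.09) and TNFSF11 (-0.07) turned; only NFKBIA had been called. Signs of members near 0, none of them called, turned elsewhere too: TNFRSF10A (-0.01) and TNFRSF13B (0.03) with quantile normalization, TNFRSF13B (0.03) with centred arrays, and TNFSF11 (-0.01) and TNFSF14 (-0.02) with the median over probe sets. When arrays were left out, differences ran from -0.13 to 0.13 for TNFSF14, -0.10 to 0.04 for TNFRSF13B, -0.14 to 0.04 for TNFRSF8, -0.01 to 0.13 for TNFSF11 and -0.16 to 0.01 for TNFRSF10B-AS1. The cause was not tested.

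No pairing by replicate number was seen: deviations of same-numbered arrays correlated at -0.02, -0.26 and -0.38 for numbers 1, 2 and 3. Between arrays of unlike number the correlations ran from -0.13 to 0.34. The highest were 0.34 for PC-3/Mc 3 with PC-3/S 2 and 0.30 for PC-3/Mc 2 with PC-3/S 3. Whether arrays of the lines shared a batch was not tested. With the replicate number as a block, 4 members were called higher and 12 lower; TNFRSF25 lost its call (adjusted p = 0.068). Members at or under the floor in both lines, 17 of the 41, are limited by signal over background.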

Other observations

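Probe sets annotated with several symbols lie outside the rule and named no gene. The probe set shared by TNFRSF6B, the soluble decoy of Fas ligand, and its read-through transcript with RTEL1 read 5.64, 5.70 and 5.90 in PC-3/Mc, against 6.96, 6.84 and 6.95 in PC-3/S (-1.17 ± 0.09, adjusted p = 9.7e-07 over all probe sets, limma). All PC-3/Mc arrays lay below all PC-3/S arrays there. This probe set is of the _x_at or _s_at kind. Probe sets shared by RTEL1 and the same read-through transcript differed by -0.43 (adjusted p = 0.0024) and 0.05 (adjusted p = 0.72) in that fit. The probe set shared by TNFSF12, which encodes TWEAK, and its read-through transcript with TNFSF13 read 4.96, 4.77 and 4.74 in PC-3/Mc, against 5.48, 5.61 and 5.75 in PC-3/S. All PC-3/Mc arrays were under the floor of 5.18, so it was at least 1.36-fold lower (adjusted p = 4.4e-05 in the same fit). With the floor at 5.96 the means of this probe set lay under the floor in both lines, and no bound can be given.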
